A study of Medicago sativa with 24 samples.

Results

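The gene studied was TC186166, a tentative consensus sequence of the Medicago Gene Index that the study annotates as a Nod factor perception protein of *M. truncatula* (UniRef100 cluster Q0GXS4, match over the complete sequence). It is 1 of the 41527 genes on the array, and it was followed in leaves over all 8 genotypes of the experiment. It was chosen for its levels in these arrays, with the level in each parent, the loss in hybrids and the state of each tetraploid all in view, so that its differences between and within the groups are a description and were not tested.

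Legumes recognize rhizobia by Nod factors, lipochitooligosaccharides that the bacteria release. In *M. truncatula*, the Nod factor perception protein (NFP) is a receptor-like kinase of the plasma membrane with LysM domains, the protein modules that bind chitin-like sugars, outside the cell. Its kinase domain is not active, and it acts together with other LysM receptor kinases. It is known for its role in the root epidermis, where it is needed for the first responses to rhizobia, so that the leaf is not the tissue in which its function is usually studied.

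The samples were young, fully expanded leaves of 8 *M. sativa* genotypes at the vegetative stage. S29-4x, S48-4x and S60-4x were tetraploid (4x) and S8-2x, S16-2x and S24-2x diploid (2x) full-sib hybrids of the cross PG-F9 × 12P, and the 4x hybrids arose from unreduced gametes of both parents. The parents were diploid, PG-F9 a subsp. *falcata* plant and 12P a plant from *coerulea* × *falcata*, both known to form unreduced gametes. Each genotype was a single plant multiplied by cuttings, and its 3 replicates each pooled leaves from 2 clones, which gives 9 arrays for the 4x hybrids, 9 for the 2x hybrids and 6 for the parents. Comparisons between these groups treated the arrays as independent, although they came from 3, 3 and 2 genotypes. Standard errors (SE) and p-values may therefore be too small, and intervals too narrow, for a statement beyond these genotypes. The sources used here do not state whether the plants carried nodules.

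Each value was a normalized intensity from a NimbleGen array whose probes had been designed on *M. truncatula*. The median intensity of the genes was between 499.3 and 527.7 per array, and replicates of a genotype correlated with a mean r of 0.985 to 0.995 per array. Background was taken as the highest of the 11 negative controls of the same array, which on average lay at 6.32 on the log2 scale. Of 9 genes expressed in leaf mesophyll, 7 lay above background on every array, with log2 intensities from 10.09 to 15.15. The exceptions were TC183902, a chlorophyll a/b-binding protein gene, and TC198142, a Rubisco small subunit gene.

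In the 4x hybrids, the transcript of TC186166 was above background on every array. Its intensity was 116.1, 162.4 and 159.3 in replicates 1, 2 and 3 of S29-4x, 147.7, 82.9 and 189.3 in S48-4x, and 149.9, 171.7 and 133.2 in S60-4x. The 3 tetraploids thus lay in the same range, apart from S48-4x replicate 2, the lowest of the 9 arrays, which was just above its highest negative control (78.1). In the 2x hybrids, the intensity was 31.6, 33.7 and 29.4 in S8-2x, 48.1, 35.5 and 46.0 in S16-2x, and 38.8, 45.3 and 26.7 in S24-2x. All of these 9 values were below the highest negative control of their array, and 2 of them, S16-2x replicate 1 and S24-2x replicate 2, were above the median negative control. In the parents, the intensity was 138.2, 188.7 and 165.1 in PG-F9 and 207.7, 176.3 and 179.2 in 12P, above background on each of the 6 arrays. Leaves of both parents and of every tetraploid thus gave a signal of this gene, and leaves of the diploid hybrids did not.

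**Figure D1:**
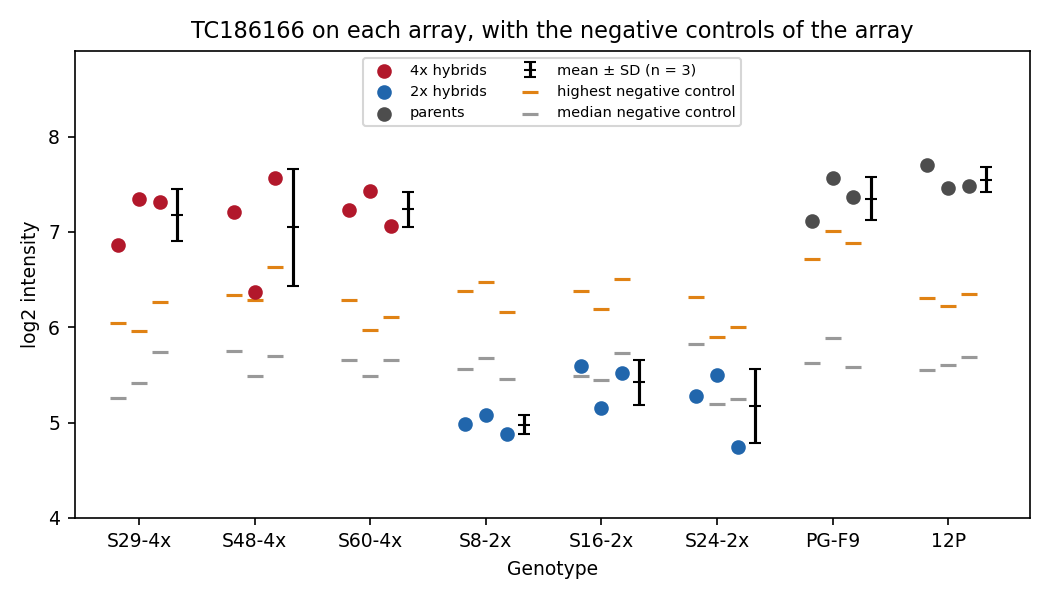
Log2 intensity of TC186166 (y axis) on each of the 24 arrays, by genotype (x axis), with the mean ± SD of each genotype (n = 3) and, as short lines, the highest and the median negative control of the same array. All 9 arrays of the 2x hybrids lie below the highest negative control, and all arrays of the 4x hybrids and the parents lie above it.

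The distance to background was not the same in all genotypes with a signal. On the log2 scale, TC186166 lay 0.81 to 1.39 above the highest negative control in S29-4x, 0.09 to 0.93 above it in S48-4x and 0.95 to 1.45 above it in S60-4x. In PG-F9 this distance was 0.39 to 0.55, and in 12P it was 1.14 to 1.39. The smaller distance in PG-F9 goes with higher negative controls, which reached 7.01 on PG-F9 replicate 2. In the 2x hybrids the gene lay 0.40 to 1.40 below the highest negative control.

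For the 9 arrays of the 4x hybrids the log2 intensity averaged 7.15 ± 0.36 (SD), for the 9 of the 2x hybrids 5.19 ± 0.30, and for the 6 of the parents 7.45 ± 0.20. The genotype means were 7.17 ± 0.27 in S29-4x, 7.05 ± 0.61 in S48-4x, 7.24 ± 0.18 in S60-4x, 4.98 ± 0.10 in S8-2x, 5.42 ± 0.24 in S16-2x, 5.17 ± 0.39 in S24-2x, 7.35 ± 0.23 in PG-F9 and 7.55 ± 0.13 in 12P (SD, n = 3 each). Ordered from low to high, the genotypes were S8-2x, S24-2x, S16-2x, S48-4x, S29-4x, S60-4x, PG-F9 and 12P. Between S48-4x and S16-2x the gap was 1.63, and their arrays did not overlap. All other neighbours in this order were 0.06 to 0.25 apart, with arrays that overlapped, so that their order is not resolved. The SD within genotypes, pooled over the 8 genotypes, was 0.31, against a median of 0.25 over all genes.

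In the 2x hybrids, the log2 difference from the parents was -2.26 (SE 0.14, limma), and every array of the 2x hybrids lay below every parental array. A separation in this direction was found for 0.364% of all genes, and 0.128% were called lower and 0.0554% higher in the 2x hybrids (absolute log2 difference over 1 with an adjusted p under 0.05). Since TC186166 was chosen from this contrast, nothing is read from these shares. The differences of S8-2x, S16-2x and S24-2x from the parents were -2.47, -2.03 and -2.28. Because the 2x hybrids were below background, these values have only a lower limit as a fold. Set against the highest negative controls in place of the measured values, the level in the 2x hybrids was at least 2.29-fold lower than in the parents, since the means were 6.25 at this limit and 7.45 in the parents.

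In the 4x hybrids, the difference from the parents was smaller in size than in the 2x hybrids. It was -0.29 on the log2 scale (SE 0.16, 95% interval -0.63 to 0.04, limma), and the arrays of the 4x hybrids (82.9 to 189.3) and of the parents (138.2 to 207.7) overlapped. Of all genes, 0.766% were called higher in the 4x hybrids and 0.597% lower, against the parents. Differences from the parents were -0.27 for S29-4x (-0.64 to 0.09), -0.40 for S48-4x (-0.94 to 0.14) and -0.21 for S60-4x (-0.54 to 0.12). The brackets hold 95% intervals from limma, given as a description and not as a test. Without S48-4x replicate 2, the difference of the 4x hybrids was -0.20. These values share the parental arrays with those of the 2x hybrids, and the high parental level was part of the choice of the gene.

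Between the ploidy levels, TC186166 was higher in the 4x hybrids, and the log2 difference from the 2x hybrids was 1.96 (SE 0.15, limma). The lowest array of the 4x hybrids was 82.9 and the highest array of the 2x hybrids was 48.1. A separation in this direction was found for 0.595% of all genes, and 0.824% were called higher and 0.648% lower in the 4x hybrids. The choice of the gene used this contrast too. With the 2x hybrids set at the highest negative controls, the level in the 4x hybrids was at least 1.86-fold higher. Equal amounts of RNA were compared, and in whole leaves fewer cells with the transcript and less transcript per cell cannot be told apart.

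Within the groups, the differences of TC186166 were smaller. The choice of the gene used the level of each genotype, so that they are given with their 95% intervals from limma and no test. PG-F9 minus 12P was -0.20 (-0.58 to 0.17), and the arrays of the parents overlapped.

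The arrays of the sib tetraploids overlapped as well. The log2 difference was 0.12 for S29-4x minus S48-4x (-0.62 to 0.87), -0.06 for S29-4x minus S60-4x (-0.46 to 0.34) and -0.19 for S48-4x minus S60-4x (-0.89 to 0.52). The widest intervals were those with S48-4x. Without S48-4x replicate 2, S29-4x minus S48-4x was -0.21 and S48-4x minus S60-4x was 0.15.

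Among the sib diploids the differences lay in the range of the background. They were -0.44 for S8-2x minus S16-2x (-0.82 to -0.07), -0.19 for S8-2x minus S24-2x (-0.68 to 0.29) and 0.25 for S16-2x minus S24-2x (-0.30 to 0.80). The arrays of S8-2x lay below those of S16-2x without overlap, as for 13.4% of all genes. As all 9 values were below the highest negative control, they give no order of the 3 diploids.

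**Figure D2:**
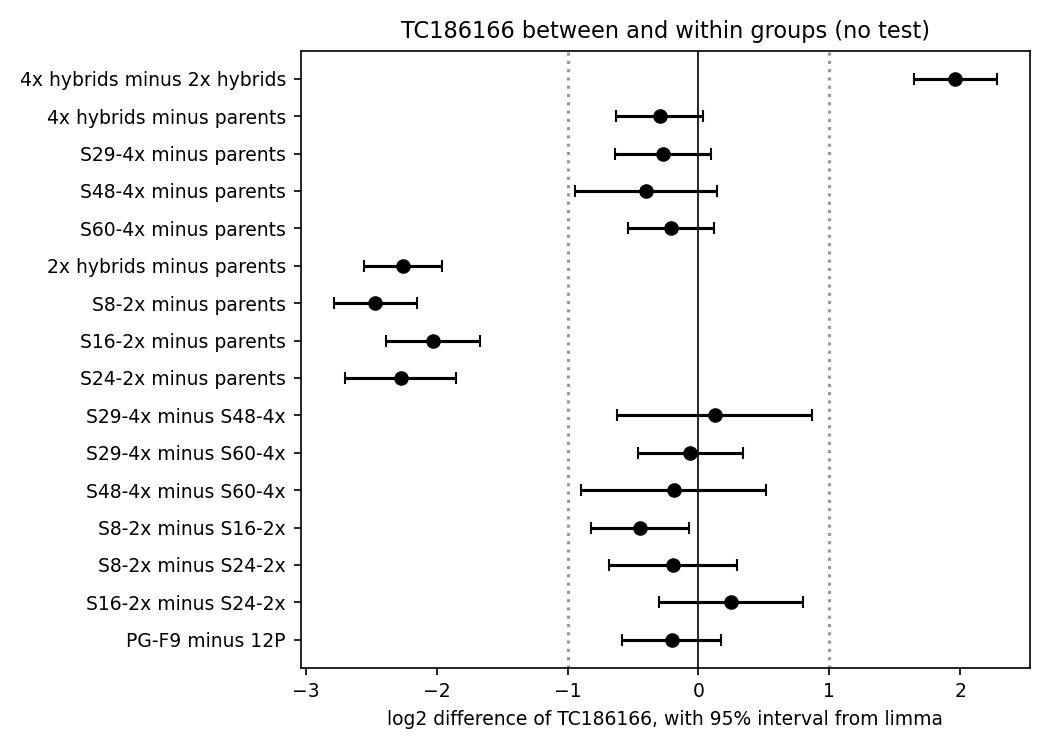
Log2 difference of TC186166 (x axis) with its 95% interval from limma, for each comparison (y axis). The choice of the gene used these values, so none was tested, and the dotted lines mark the threshold of 1. The differences from the 2x hybrids or of the 2x hybrids from the parents lie beyond 1, and all others within it.

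The pattern of TC186166 was rare on the array. It was the only gene of 41527 that was above background on all 9 arrays of the 4x hybrids and all 6 arrays of the parents and on no array of the 2x hybrids. On S48-4x replicate 2 it lay only 0.09 (log2) above background, so that its place in this count rests on a narrow margin. On all parental arrays and on no array of the 2x hybrids, 2 genes were above background, TC186166 and NP7276836, and NP7276836 was below background on all arrays of the 4x hybrids too. On all arrays of the 4x hybrids and no array of the 2x hybrids, 4 genes were above background, and 0 genes showed the opposite. Without regard to background, every array of the 2x hybrids lay below every array of both other groups for 21 genes (0.0506%) and above them for 14 (0.0337%). These counts describe the arrays and were made after the values had been seen.

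The genes most like TC186166 were sought by the correlation of the 8 genotype means, among 11901 other genes with a spread of these means over 1 and the highest of them above the mean background. The genotypes share parents, and within a genotype the points share the same 3 arrays, so that these correlations are a description. NP7260844, a gene for a hypothetical protein, had the highest correlation (r = 0.979). Its intensity was 432.6, 497.0 and 410.2 in S29-4x, 525.5, 540.2 and 380.6 in S48-4x, and 407.3, 418.1 and 483.2 in S60-4x. It was 76.4, 65.3 and 73.7 in S8-2x, 71.9, 83.8 and 78.7 in S16-2x, and 111.3, 119.7 and 64.7 in S24-2x. In the parents it was 553.7, 930.0 and 818.4 in PG-F9 and 528.3, 489.9 and 542.0 in 12P. As for TC186166, the values of the 2x hybrids were the lowest and did not overlap with any other array, but only 4 of these 9 values were below background. The mean log2 intensity was 8.82 in the 4x hybrids, 6.34 in the 2x hybrids and 9.29 in the parents.

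The next genes by correlation followed TC186166 less closely. TC185306, a beta-galactosidase gene (r = 0.932), averaged 9.82 in the 4x hybrids, 8.71 in the 2x hybrids and 9.53 in the parents, and NP7269991, a cyclic peptide transporter gene (r = 0.931), averaged 11.16, 10.24 and 11.56 in these groups. NP7260612 (r = 0.931) and TC195913 (r = 0.925), for which no annotation was used here, had log2 differences of 0.68 and 0.53 for 4x minus 2x hybrids and of -0.94 and -0.92 for 2x hybrids minus parents. In all 4 genes the arrays of the 2x hybrids overlapped with those of another group. The lowest correlations were those of TC177475 (r = -0.896), TC191191 (r = -0.889) and TC176842, a 1-Cys peroxiredoxin gene (r = -0.886), which averaged 7.08 in the 4x hybrids, 8.11 in the 2x hybrids and 7.11 in the parents.

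**Figure D3:**
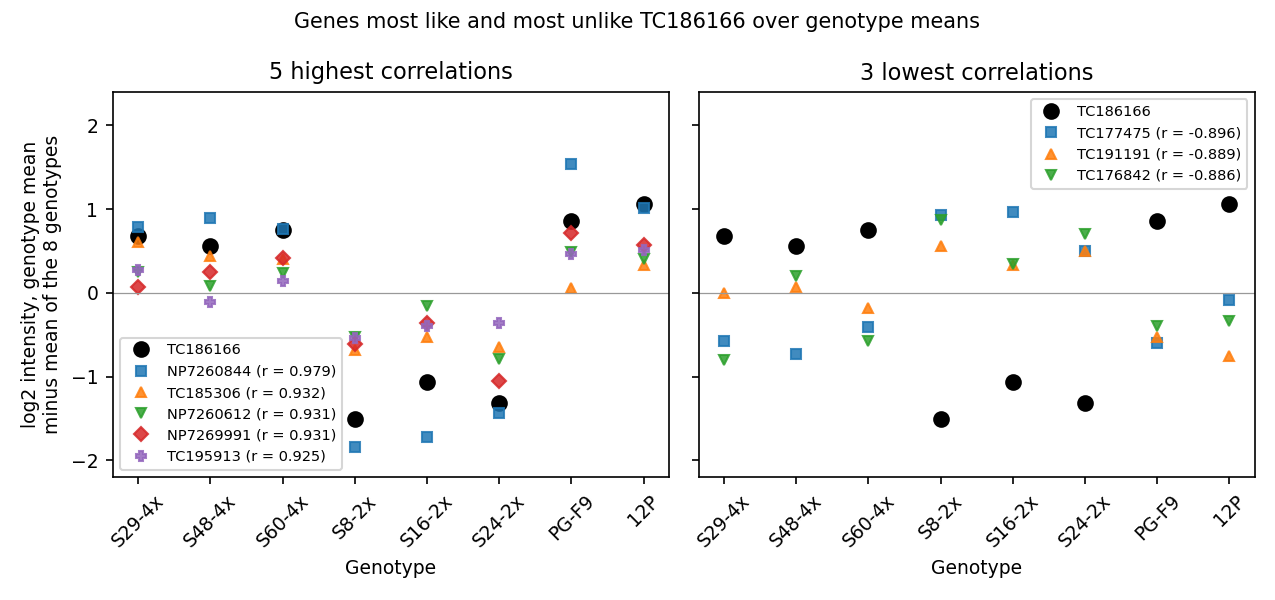
Genotype means of log2 intensity, each minus the mean of the 8 genotypes (y axis), by genotype (x axis), for TC186166 and the 5 genes with the highest (left) and the 3 genes with the lowest (right) Pearson correlation with it over the 8 means. NP7260844 is the only gene shown whose drop in the 2x hybrids is as large as that of TC186166.

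Other genes with an annotation related to symbiosis did not share this pattern. The 8 others named Nod factor, nodulin, nodule or LysM in the annotation were described as a list. The study had selected these genes on the same arrays as differing between groups, so that their counts are no independent evidence. In the 2x hybrids against the parents, 1 of the 8 was lower and the other 7 did not pass the test, with 0.183% of all genes called and a median log2 difference of 0.03 in the list and -0.01 over all genes. In the 4x hybrids against the parents, 5 rose, 2 fell and 1 did not pass, with 1.36% of all genes called and a median of 1.06 in the list and -0.02 over all genes. Without S48-4x replicate 2, 4 of the 8 were called. In the 4x against the 2x hybrids, 3 rose and 5 did not pass, with 1.47% of all genes called and a median of 0.78 in the list and -0.01 over all genes. Between the parents, 3 of the 8 were higher and 1 lower in PG-F9 than in 12P, with 5.29% and 5.78% of all genes called in these directions (11.1% in all).

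TC187166, annotated as a LysM-domain receptor-like kinase, is the gene of the list closest to TC186166 in its annotation. Its log2 intensity was 7.48 to 8.51 (median 7.86) in the 4x hybrids, 6.94 to 10.03 (median 8.24) in the 2x hybrids and 8.22 to 10.10 (median 9.03) in the parents, above background on all arrays. It fell in the 4x hybrids against the parents (log2 difference -1.10, SE 0.26, adjusted p = 0.013 from limma). Its difference from the parents in the 2x hybrids was -0.69 (SE 0.41, adjusted p = 0.55 from limma). Its genotype means were 7.91 in S8-2x, 9.32 in S16-2x and 7.88 in S24-2x, and it was higher in PG-F9 (9.62) than in 12P (8.49; log2 difference 1.12, adjusted p = 0.024 from limma). The signal of this gene was thus kept in all diploids, in contrast to that of TC186166.

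Early nodulins are proteins whose genes are known to be switched on early in nodule formation. TC191278, similar to early nodulin 12B, averaged 11.77 ± 0.35 in the 4x hybrids (SD, n = 9), 11.36 ± 0.43 in the 2x hybrids (SD, n = 9) and 11.45 ± 0.30 in PG-F9 (SD, n = 3), and was at background on all 3 arrays of 12P (5.21 ± 0.33). The level in PG-F9 was at least 35.8-fold higher than in 12P (adjusted p = 1.32e-05 from limma). The increase in the 4x hybrids against the parents (adjusted p = 0.042 from limma) was found against a parental mean that includes 12P, and the arrays of the 4x hybrids and PG-F9 overlapped. TC193898, a homologue of early nodulin 10, was above background in S29-4x (7.25), S48-4x (7.59) and PG-F9 (7.92). It was below background on all arrays of S60-4x (5.83), S8-2x (5.43), S16-2x (5.33), S24-2x (5.87) and 12P (5.56). It was thus also at background in the 3 diploids, but, unlike TC186166, in 1 tetraploid and in 1 parent as well. It rose in the 4x against the 2x hybrids (log2 difference 1.35, adjusted p = 0.011 from limma). This difference includes values below background in S60-4x and in the 3 diploids, so that its size is not resolved.

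The remaining members of the list were above background on every array. TC179367, a nodulin precursor, rose in the 4x hybrids against the parents by 1.06, and TC192759, a nodule-specific glycine-rich protein, by 1.06 (adjusted p = 0.0045 and 0.0035 from limma). TC188008 and TC183392, both similar to senescence-associated nodulin 1A, rose by 1.43 and 1.97 (adjusted p = 0.0011 and 0.0027 from limma). TC188008 (1.02) and TC192759 (1.08) were also higher in the 4x than in the 2x hybrids (adjusted p = 0.0028 and 0.0053 from limma). TC190281, a nodulin family protein, was the only gene of the list lower in the 2x hybrids. It averaged 10.22 ± 0.36 in the 2x hybrids (SD, n = 9) and 11.25 ± 0.35 in the parents (SD, n = 6), which differed by -1.03 (SE 0.18, adjusted p = 0.019 from limma). It did not pass the threshold without S8-2x replicate 1, S24-2x replicate 3, PG-F9 replicate 3 or 12P replicate 1. In the 4x hybrids it fell as well, by 1.23 (adjusted p = 0.018 from limma).

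**Figure D4:**
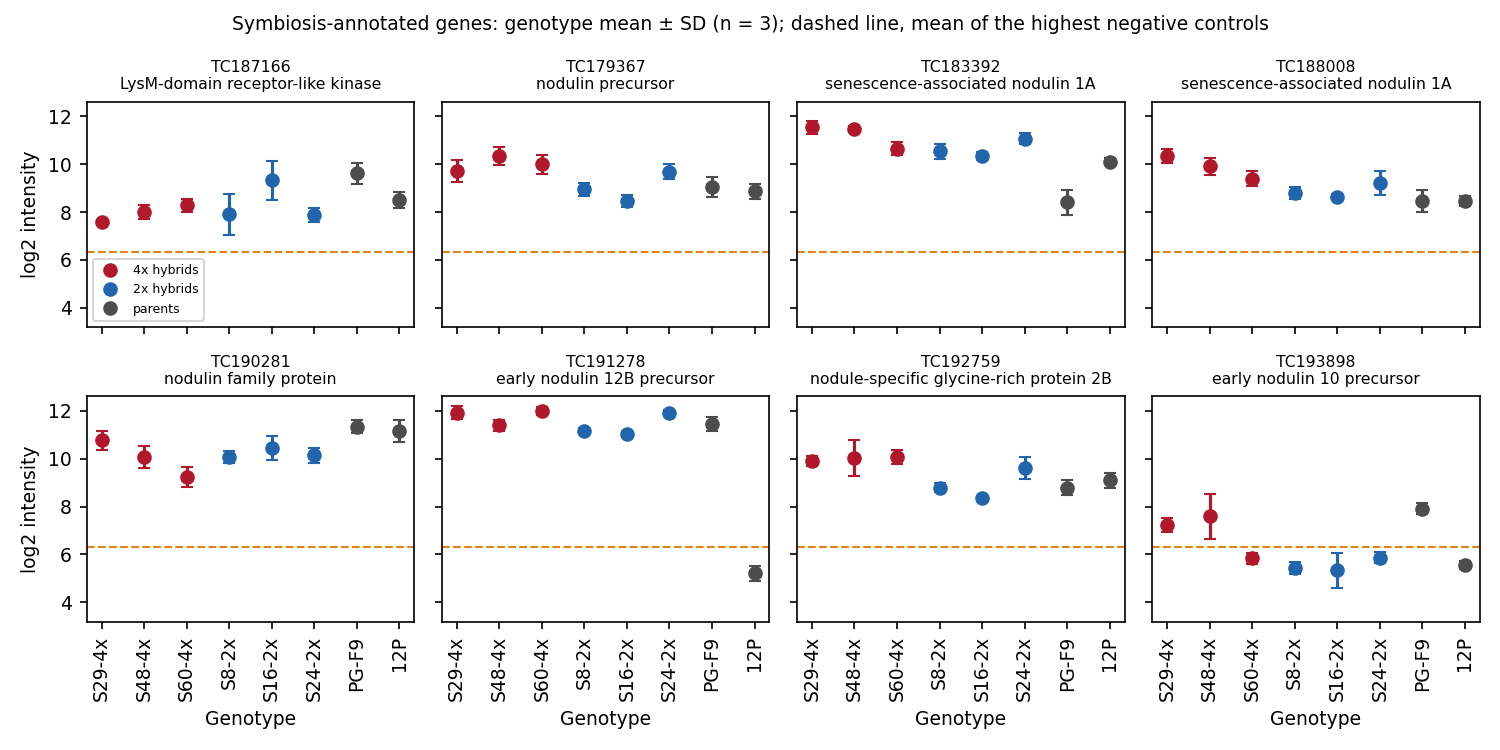
Log2 intensity (y axis) of the 8 other symbiosis-annotated genes by genotype (x axis), as mean ± SD of 3 arrays, with the mean of the highest negative controls (6.32) as a dashed line. TC191278 is at background in 12P alone, and TC193898 in S60-4x, the 3 diploids and 12P.

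The same was examined for 15 genes annotated as protein kinases, the class of enzymes to which receptor-like kinases belong, which the study had likewise selected on these arrays. Of these, 1 fell in the 2x hybrids against the parents and 14 did not pass, with 0.183% of all genes called. Against the parents, 2 fell in the 4x hybrids and 13 did not pass, with 1.36% of all genes called. In the 4x against the 2x hybrids, 7 rose, 7 fell and 1 did not pass (median 0.08, against -0.01 over all genes), with 0.824% of all genes called higher and 0.648% lower. Between the parents, 9 were higher and 2 lower in PG-F9 than in 12P and 4 did not pass (median 1.14, against -0.01 over all genes), with 5.29% of all genes called higher and 5.78% lower. TC193850 was the gene lower in the 2x hybrids (7.42 ± 0.85, SD, n = 9) than in the parents (9.83 ± 1.27, SD, n = 6; log2 difference -2.41, SE 0.50, adjusted p = 0.046 from limma), a call that was lost in 13 of the 15 fits without 1 array. In the 4x hybrids it was higher than in the 2x hybrids by 2.52 (SE 0.42, adjusted p = 0.00095 from limma). As in TC186166, all 3 diploids were below all tetraploids in the genotype means, but the signal was kept above background on 8 of the 9 arrays of the 2x hybrids, and PG-F9 (10.93) and 12P (8.73) differed. TC184751, annotated as a protein kinase with a lectin domain, had the opposite direction, with 4x minus 2x hybrids at -1.93 (SE 0.28, limma adjusted p = 0.00025). It was above background on 4 of the 9 arrays of the 4x hybrids, 3 of them of S29-4x, and on all 9 of the 2x hybrids, so that the difference includes values below background and its size is not resolved. TC194116, an S-receptor kinase gene, did not pass in the 2x hybrids against the parents (log2 difference -2.06, SE 0.46, adjusted p = 0.067 from limma). Its arrays in these groups did not overlap, as for 0.364% of all genes in this direction. Its genotype means were 10.08 in S29-4x, 10.26 in S48-4x, 6.41 in S8-2x, 7.72 in S16-2x, 10.15 in PG-F9 and 9.35 in 12P. As in TC186166, the 2x hybrids were thus the lowest group. Unlike in TC186166, the mean of S24-2x (8.94) lay above that of S60-4x (8.52).

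Among the hybrids, the summed signal of the leaf genes was higher on every tetraploid array than on any diploid array. The arrays of the parents, which were diploid too, overlapped with those of both hybrid groups. The log2 of the summed intensity of the 9 leaf mesophyll genes was 16.1 to 17.1 in the 4x hybrids, 14.7 to 15.7 in the 2x hybrids and 14.95 to 16.88 in the parents. These genes had been selected by the study for their difference between 2x and 4x hybrids. TC183902 was above background on 9 arrays of the 4x hybrids, 2 of the 2x hybrids and 4 of the parents, and TC198142 on 9, 3 and 3 arrays. The part of leaf composition in the levels of TC186166 was not tested.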

How the data were processed

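Gene transcription was measured in 24 leaf RNA samples, each on 1 NimbleGen array. The deposited values are linear intensity values per gene: the authors had applied quantile normalization between arrays and RMA summarization of probes. The table holds 41538 entries, of which 11 negative controls were left out of the tests and used as background. No array identifier was found in the gene list of *M. sativa* available here (0 matches), and annotations were taken from the tables of the study. Other genes of Nod factor signalling, and sequences of the genes, were not analysed here.

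After log2 transformation, comparisons were fitted in limma 3.58.1 (R 4.3.3; lmFit, eBayes, unpaired). The unpaired comparison of groups follows the methods of the study, and fitting only the arrays compared was chosen here. It does not model genotype, so that clones of a genotype count as separate replicates of a group. Benjamini-Hochberg adjustment covered all 41527 genes, and a call required an absolute log2 difference over 1 together with an adjusted p under 0.05. Intervals are 95% intervals of limma. Differences are those of the group named first minus the group named second. A fold described as at least a value was computed with the dim group set, on each array, at the higher of its own value and the highest negative control. Plots and descriptions used Python 3.11.15 with pandas 2.3.3 and matplotlib 3.10.9.

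Tests of TC186166 within the groups had been planned but are not given, since its choice used the level of each genotype. TC186166, the gene lists and the tests were chosen with earlier results of these data known. The genes named were TC186166, the 8 symbiosis-annotated genes, the protein kinase genes called in the 2x hybrids against the parents and the 2 with the largest absolute difference between 4x and 2x hybrids, and the 5 genes most like and the 3 most unlike TC186166. TC194116 was added after its values had been seen, because its arrays of the 2x hybrids and the parents did not overlap. The fits were tested on simulated data. The alternatives were other normalizations, floors at the negative controls, a filter on low genes, other eBayes options, a replicate block, a fit of all arrays, and leaving out arrays or genotypes. The number of arrays and of genotypes limits the precision.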

Additional observations from a re-analysis of the deposited data

Results flagged for a closer look

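Among 51 sets of arrays of TC186166, the symbiosis-annotated genes and the genes most like and unlike TC186166, 1 array lay far from the others of its group. The log2 intensity of TC188008, similar to senescence-associated nodulin 1A, was 9.76 in S24-2x replicate 1, the highest of the 9 arrays of the 2x hybrids. Chance alone would put an array so far from the rest in about 5% of such sets. In the groups of TC186166 no array stood apart in this way.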

How the results depend on the processing

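The differences of TC186166 counted as unchanged in 156 of 165 alternatives. Between the groups this meant the same direction and a shift of less than the SD between arrays. Within the groups it meant the same direction and the same state of the call, whatever the size of the shift. With a floor at the highest negative control, S8-2x minus S16-2x was thus counted as unchanged although it shrank to -0.02. The replicate block, the fit of all arrays and the other eBayes options cannot move a difference in this balanced design. They could change only its SE or, within the groups, the call. The count of 156 therefore includes alternatives whose outcome was largely fixed in advance. The difference of the 2x hybrids from the parents was -1.19 with a floor at the highest negative control and -1.89 with a floor at the median negative control, an alternative added after the data had been seen, and the difference of the 4x from the 2x hybrids was 0.90 and 1.59 with these floors, because the floor replaces values below background. Without 1 array, the 2x hybrids differed from the parents by -2.325 to -2.201 and the 4x from the 2x hybrids by 1.91 to 2.06. The direction of S8-2x minus S24-2x turned with the floor at the highest negative control (0.26). Without 1 array, S29-4x minus S48-4x ran from -0.21 to 0.38, S29-4x minus S60-4x from -0.15 to 0.093 and S48-4x minus S60-4x from -0.45 to 0.15.

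In the 2x hybrids against the parents, the number of genes called by limma was 76, with 45 under the replicate block, 480 in a fit of all 24 arrays with 8 genotype means, and 41 to 93 without 1 array. Of the symbiosis-annotated genes, 4 were called in the fit of all arrays and 0 to 1 without 1 array (4 to 6 at an unadjusted p under 0.05). Of the protein kinase genes, 0 were called under the replicate block (5 at an unadjusted p under 0.05), 6 in the fit of all arrays, 2 with trend and robust options, and 0 to 1 without 1 array (5 to 9 at an unadjusted p under 0.05). In the 4x hybrids against the parents, 4 to 7 symbiosis-annotated genes were called without 1 array. The cause of these changes was not tested. Replicate numbers gave no pairing of arrays (mean correlation of residuals -0.007 over 84 pairs with the same number), and 7 of 24 arrays correlated best with their own number.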
